A study of Homo sapiens with 12 samples.

Results

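The 9 genes described here encode replacement histones, the histone variants that a cell can make outside S phase. They are H3F3A and H3F3B (histone H3.3), H2AFZ and H2AFV (H2A.Z), H2AFX (H2A.X), H2AFY (macroH2A1), H2AFJ (H2A.J), H1F0 (the linker histone H1.0) and H1FX (the linker histone H1.X). They were taken by their GENCODE 29 symbols from a table of 58174 genes, and were chosen with earlier results of these data known. The measurements came from the human colorectal carcinoma cell line HCT116 under Dolastatin 15, a peptide from the sea that binds to tubulin and keeps microtubules from forming. The treated groups held 20 nM or 100 nM Dolastatin 15 in DMSO for 16 h or 24 h, and the solvent controls held DMSO alone for the same times. All 6 groups shared growth medium with 10% serum, treatment medium with 5% serum and a DMSO concentration of 0.25%. Each group had 2 libraries of poly(A)-selected RNA, 12 in all. Samples are duplicates per the labels, which do not say that each came from its own culture, and p-values therefore cover the spread between these libraries, which may be technical.

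Most histone protein is made in S phase from clustered genes whose mRNAs end in a stem-loop and carry no poly(A) tail. Replacement variants are made from spliced or single-exon genes outside those clusters, their mRNAs are mostly polyadenylated, and their proteins are placed into chromatin by chaperones throughout the cell cycle. H3.3 marks active genes, regulatory elements and repeats, H2A.Z flanks promoters, H2A.X is phosphorylated around DNA breaks, macroH2A lies in repressed chromatin, and H1.0 is a linker histone known from cells that have stopped dividing. Dolastatin-type agents halt cells in mitosis, and the labels do not state how many cells were in mitosis, so fewer cells of a cell-cycle stage and less RNA per cell cannot be told apart in these bulk libraries.

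Levels are FPKM, in which the authors scaled fragments by transcript length and library size before they deposited the table. Libraries carry the numbers of the table: 1 to 6 are those of 16 h (20 nM 1 and 2, 100 nM 3 and 4, solvent 5 and 6) and 7 to 12 those of 24 h (20 nM 7 and 8, 100 nM 9 and 10, solvent 11 and 12). Changes are differences of mean log2(FPKM + 1) from limma, with a gene called where its two-sided p, adjusted by Benjamini and Hochberg over all tested genes, was under 0.05. The libraries summed to between 911720 and 1049886 FPKM over 20368 to 21519 genes above 0. Transcripts of the mitochondrial genome made up 17.9% to 25.8% of that sum, with 17.9% and 18.6% for solvent, 23.8% and 25.8% for 20 nM and 18.8% and 20.7% for 100 nM at 24 h. Of 7 epithelial markers, EPCAM and the keratins KRT8, KRT18 and KRT19 were abundant (204 to 486 FPKM) while CDH1 was at 2.91 to 3.92 and VIL1 at 0.06 to 0.22 FPKM. Of 8 markers of blood, stromal, endothelial and liver cells, COL1A1 reached 4.34 FPKM and the others stayed at or under 0.55, with PTPRC at 0 in 7 libraries and CD3E at 0 in 11. Summed over the 8, these markers were at 1.66 to 3.21 FPKM in treated and 3.72 to 4.22 FPKM in solvent libraries at 16 h, and at 2.76 to 3.94 FPKM in treated and 3.92 to 4.48 FPKM in solvent libraries at 24 h, and their part in the results was not tested.

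The replacement histones spanned from among the most abundant mRNAs to the edge of detection. H3F3B had a median of 2564 FPKM over the 12 libraries and ranked 39 to 56 among all genes. It was followed by H2AFZ with a median of 479.96 FPKM and by H3F3A with 273 FPKM. H2AFY had a median of 182, H2AFX of 149, H2AFV of 119, H1F0 of 102.5 and H1FX of 93.2 FPKM. H2AFJ lay between 0.27 and 0.87 FPKM and was the 1 member of 9 that did not pass the filter of at least 1 FPKM in at least 2 libraries. Since FPKM is scaled to length, these levels can be set side by side. The ranges of H3F3B, H2AFZ and H3F3A did not overlap, each neighbouring pair from H3F3A down to H1FX did overlap, and H1FX stood clear of H2AFJ.

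**Figure D1:**
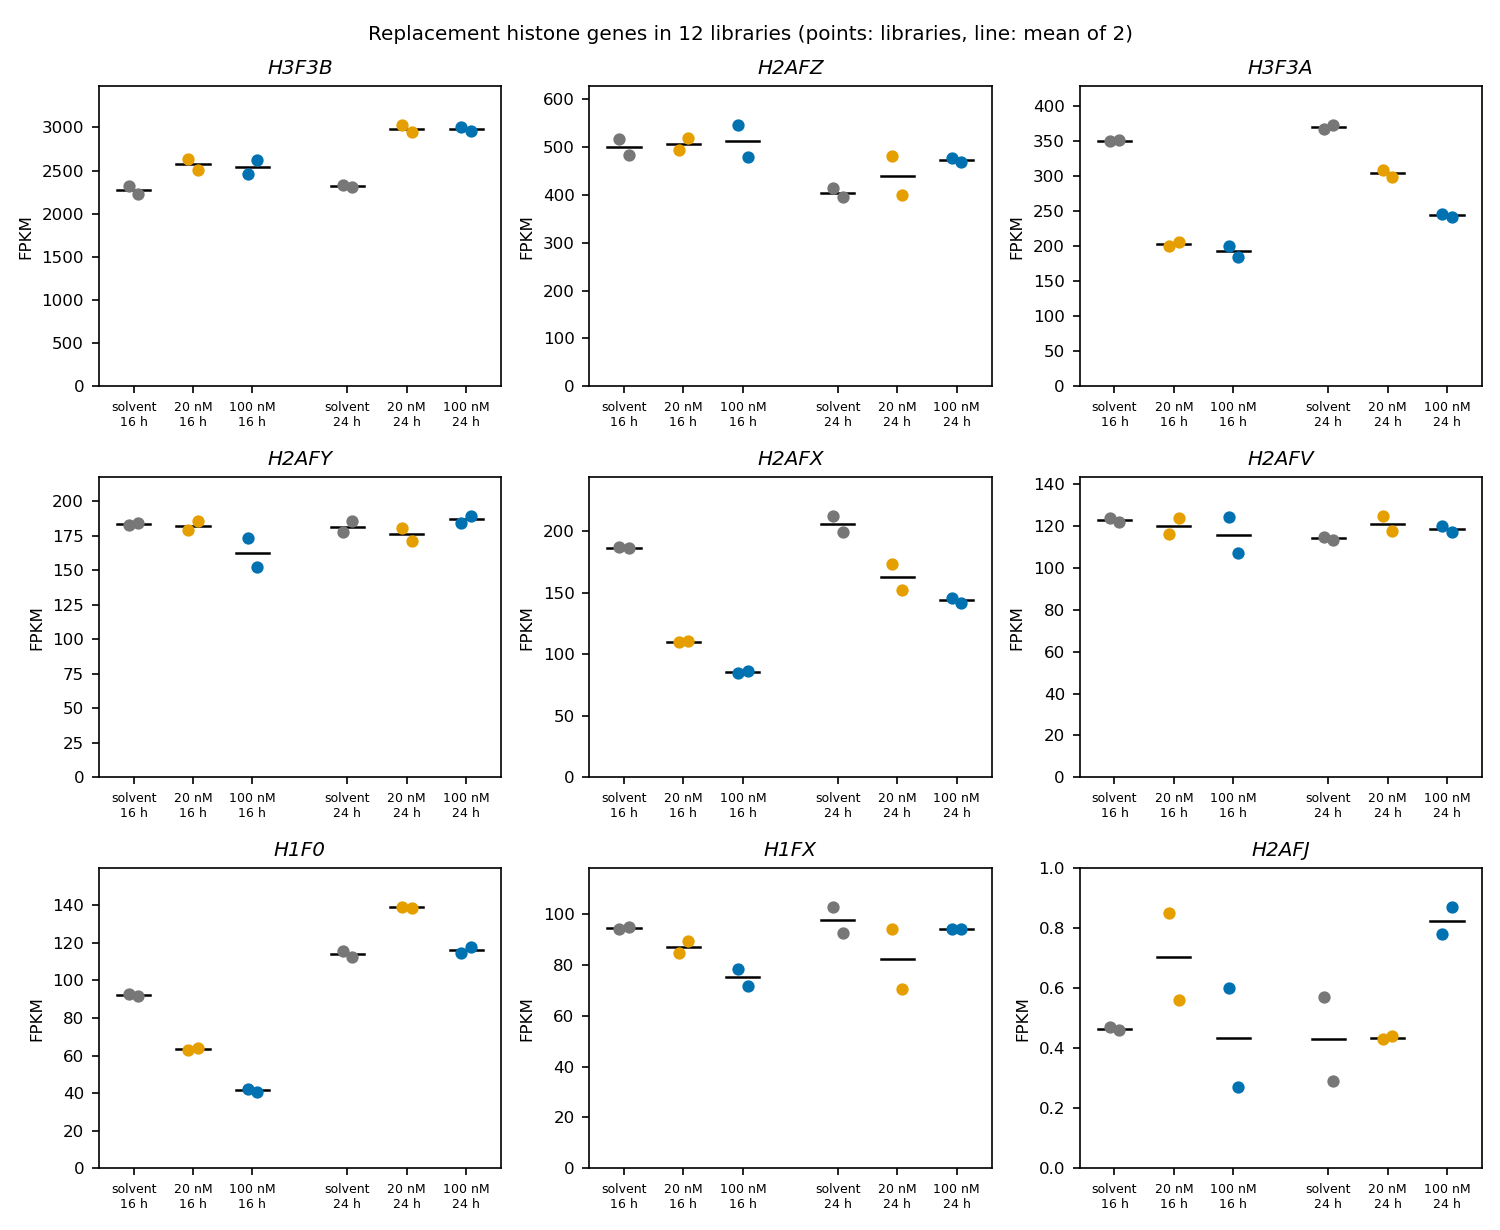
FPKM (vertical axes, starting at 0 and scaled per gene) of the 9 replacement histone genes in solvent, 20 nM and 100 nM libraries at 16 h and 24 h (points: single libraries; lines: means of 2). H3F3A, H2AFX and H1F0 at 16 h stand well below solvent in all 4 treated libraries, H3F3B stands above it, and H2AFV and H2AFY stay within 107 to 125 and 152 to 189 FPKM.

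Members differed in how far they moved across the 12 libraries. The highest value of H1F0 was 3.41 times its lowest, that of H2AFX 2.50 times and that of H3F3A 2.02 times. The same ratio was 1.16 for H2AFV, 1.24 for H2AFY, 1.36 for H3F3B, 1.38 for H2AFZ and 1.45 for H1FX. The coefficient of variation over all libraries was 36.7% for H1F0, 29.3% for H2AFX and 26.0% for H3F3A, against 4.57% to 11.5% for the other 5 members above the filter. The variable members were 1 of 2 H3.3 genes, the H2A.X gene and 1 of 2 linker histone genes.

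Against solvent at 16 h, 4 of the 8 tested members were called at 20 nM, 1 higher and 3 lower, where 17.7% of all 13458 tested genes were called (6.78% higher and 11% lower). At 100 nM and 16 h the count was again 4 of 8, 1 higher and 3 lower, beside 23.8% of all tested genes (9.16% higher and 14.7% lower). At 24 h, 4 of 8 were called at 20 nM, 2 higher and 2 lower, beside 28.8% of all tested genes (14.7% higher and 14.1% lower). At 100 nM and 24 h, 3 of 8 were called, 1 higher and 2 lower, beside 33.8% of all tested genes (15.4% higher and 18.4% lower). The median log2 change of the 8 members was -0.08 and -0.25 at 16 h (20 nM and 100 nM) and 0.02 and 0.03 at 24 h, beside medians over all tested genes of -0.02, -0.03, 0.00178 and -0.02. These 4 comparisons share the solvent libraries of their time point. With 8 genes, and a background of this size at 24 h, these counts say little of the set, and the members are therefore described one by one.

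**Figure D2:**
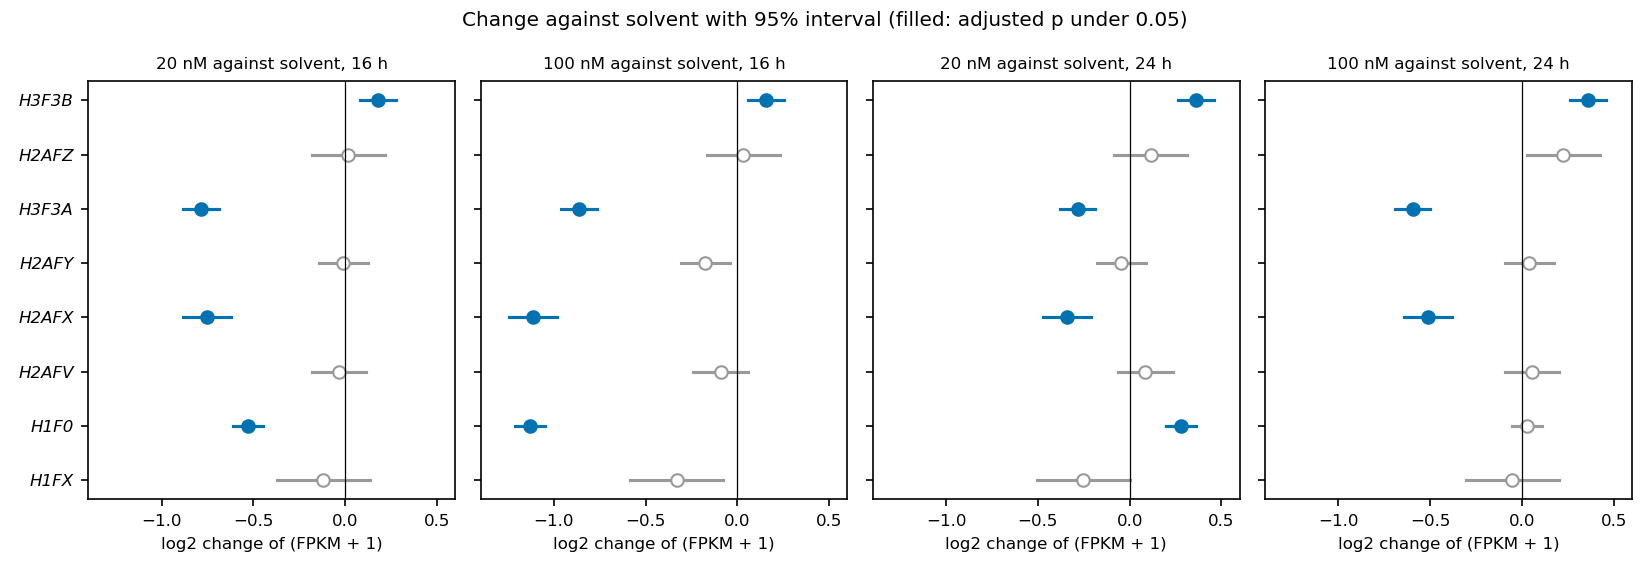
Difference of mean log2(FPKM + 1) between each dose and the solvent of its time (horizontal axis) with its 95% interval for the 8 tested replacement histones (filled points: adjusted p under 0.05). H3F3A and H2AFX lie left of 0 in all 4 panels and H3F3B right of 0, while H1F0 lies at -0.53 and -1.13 at 16 h and at 0.28 and 0.03 at 24 h.

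The H3.3 genes H3F3A and H3F3B encode the same protein from different loci and moved in opposite directions. H3F3A (ENSG00000163041; GRCh38 chr1:226061851-226072001, plus strand) had 349.8 and 352 FPKM in solvent, 199.8 and 206 FPKM at 20 nM and 200.1 and 185 FPKM at 100 nM at 16 h. Its values at 24 h were 367 and 373 FPKM in solvent, 309 and 299 FPKM at 20 nM and 247 and 242 FPKM at 100 nM. All 8 treated libraries were below all 4 solvent libraries, and the lowest values were those of 16 h. The log2 change was -0.78 (SE 0.04, adjusted p = 1.76e-05) at 20 nM and -0.86 (SE 0.04, adjusted p = 4.44e-06) at 100 nM at 16 h, so that H3F3A fell to 0.579 and 0.549 times its solvent level. At 24 h the change was -0.28 (adjusted p = 0.00178) at 20 nM and -0.60 (adjusted p = 2.54e-05) at 100 nM, or 0.822 and 0.661 times the solvent level. These 4 calls held in each of 22 alternatives, which are given after the report, with -0.47 at 20 nM and 24 h on rescaling to a common sum.

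H3F3B (ENSG00000132475; chr17:75776434-75785893, minus strand) had 2318 and 2228 FPKM in solvent, 2639 and 2506 FPKM at 20 nM and 2454 and 2621 FPKM at 100 nM at 16 h. After 24 h it had 2331.5 and 2306 FPKM in solvent, 3025 and 2943 FPKM at 20 nM and 3008 and 2954 FPKM at 100 nM. Treated libraries were above the solvent libraries of their time in all 8 cases, by a small margin at 16 h and a wider one at 24 h. The log2 change at 24 h was 0.36 (SE 0.04) at both doses, with adjusted p = 0.000569 at 20 nM and 0.000430 at 100 nM, or 1.29 times the solvent level at either dose. On rescaling to a common sum the change at 20 nM was 0.18 (adjusted p = 0.00883). At 16 h it was 0.18 (SE 0.04, adjusted p = 0.0232) at 20 nM and 0.16 (SE 0.04, adjusted p = 0.0286) at 100 nM. The 16 h calls were close to the threshold: that of 20 nM ended without library 1, 5 or 6 (adjusted p = 0.0593 to 0.155) and that of 100 nM without library 4, 5 or 6 (0.0609 to 0.160).

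The balance between the H3.3 genes shifted while the dominant gene set the total. The ratio of H3F3B to H3F3A at 16 h was 6.63 and 6.34 in the solvent libraries, 13.2 and 12.1 in those of 20 nM and 12.3 and 14.2 in those of 100 nM. The ratio at 24 h was 6.36 and 6.19 in the solvent libraries, 9.80 and 9.85 in those of 20 nM and 12.19 and 12.22 in those of 100 nM. No treated library fell within the solvent range of 6.19 to 6.63, and at 24 h the doses were also apart. H3F3A thus held 13.4% ± 0.36 of the summed H3.3 FPKM in solvent, 7.33% ± 0.40 at 20 nM and 7.06% ± 0.67 at 100 nM at 16 h (SD, n = 2 each). At 24 h its share was 13.8% ± 0.23 in solvent, 9.24% ± 0.03 at 20 nM and 7.57% ± 0.01 at 100 nM. The sum of both genes was 2776 ± 89 FPKM at 20 nM and 2730.0 ± 107 FPKM at 100 nM at 16 h, against 2624 ± 62 FPKM in solvent, a difference of the size of the spread between libraries. At 24 h the sum was 3288 ± 65 FPKM at 20 nM and 3225 ± 41 FPKM at 100 nM, against 2688 ± 14 FPKM in solvent. Totals over all genes differed at 24 h too. They were 1048249 and 1049886 FPKM at 20 nM, 978510 and 989986 FPKM at 100 nM, and 911720 and 929715 FPKM in solvent. The part of these totals in the larger H3.3 sum was not tested. The ratio and the sum of the H3.3 genes are descriptions and were not tested.

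**Figure D3:**
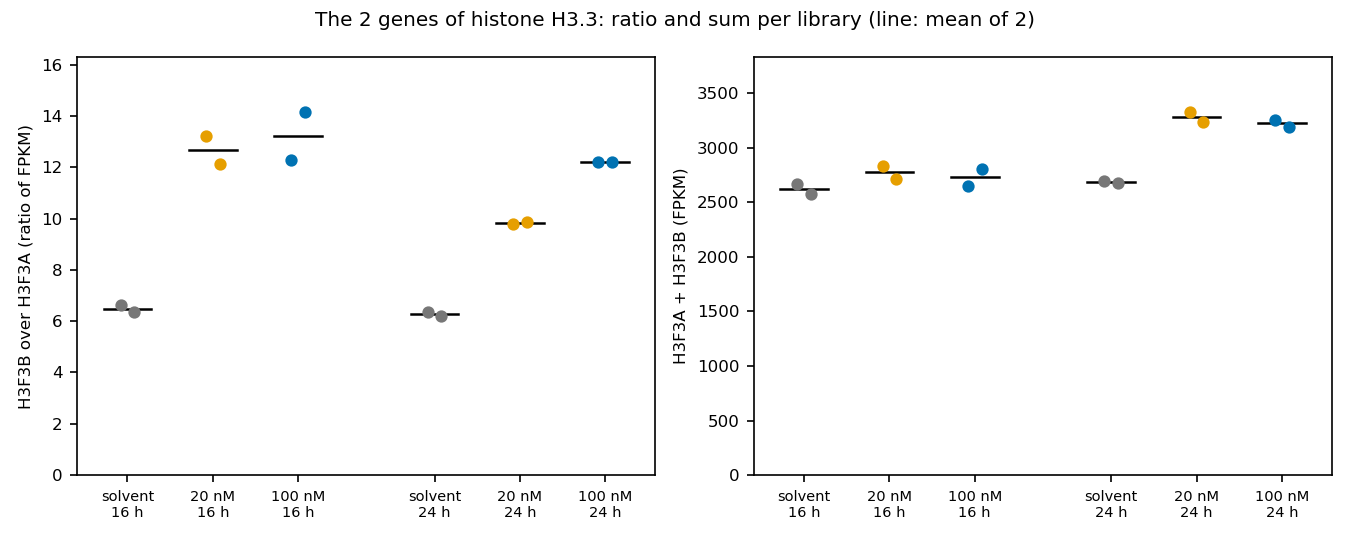
Left, FPKM of H3F3B divided by FPKM of H3F3A, and right, their summed FPKM, by library in solvent, 20 nM and 100 nM groups at 16 h and 24 h (points: libraries; lines: means of 2; both axes start at 0). The ratio is 6.19 to 6.63 in the 4 solvent libraries and 9.80 to 14.2 in the 8 treated ones. The sum, without rescaling of the libraries, stands apart from solvent at 24 h.

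The value of H3F3A depends on how reads were divided with a near-identical copy. Of 15 annotated pseudogenes of the members, 5 were above 0 in any library and 1 passed the filter, the processed pseudogene H3F3AP4 (chr2:174719908-174720318). It had 56.6 and 43.7 FPKM in solvent, 46.0 and 24.2 FPKM at 20 nM and 27.1 and 48.9 FPKM at 100 nM at 16 h. At 24 h it had 76.6 and 81.4 FPKM in solvent, 93.4 and 118 FPKM at 20 nM and 48.8 and 54.8 FPKM at 100 nM. These values were 11.7% to 39.4% of the FPKM of H3F3A, and H3F3AP4 was not called in any of the 9 comparisons (adjusted p = 0.104 to 0.925). The copy is 411 bases long and the longest H3F3A transcript 1863 bases. Since FPKM is scaled to length, these percentages are not shares of reads, and the copy's share of reads would be smaller. At 20 nM and 24 h, where H3F3A was lower than solvent, the copy averaged 105.5 FPKM against 79.0 FPKM in solvent, and the part of reads assigned to the copy in the smaller H3F3A value was not tested. At 16 h and at 100 nM the copy had a lower mean than in solvent, as H3F3A did. The coding gene UNK overlaps H3F3B on the other strand at 25.3 to 35.4 FPKM, and other genes overlapping a member were at or under 0.89 FPKM.

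The promoters of the H3.3 genes and of H2AFX are shown because these genes moved in different directions under the drug. RefSeq (GRCh38.p14) gave windows for 8 of the 9 members, and the 250 bases before the start are printed 5′ to 3′ on the gene's strand with CCAAT or its reverse complement ATTGG in capitals. The window of H3F3A is chr1:226062466-226062715 (plus strand). Of its 4 windows this one had the most annotated coding starts within 100 bases, 2 of 4. The window of H3F3B is chr17:75779780-75780029 (minus strand) and that of H2AFX is chr11:119095466-119095715 (minus strand).
H3F3A: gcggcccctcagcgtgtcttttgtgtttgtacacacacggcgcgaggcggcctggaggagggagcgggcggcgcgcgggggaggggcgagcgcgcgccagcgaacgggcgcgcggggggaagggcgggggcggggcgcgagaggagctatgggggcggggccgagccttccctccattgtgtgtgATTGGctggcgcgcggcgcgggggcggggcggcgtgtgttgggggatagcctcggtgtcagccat
H3F3B: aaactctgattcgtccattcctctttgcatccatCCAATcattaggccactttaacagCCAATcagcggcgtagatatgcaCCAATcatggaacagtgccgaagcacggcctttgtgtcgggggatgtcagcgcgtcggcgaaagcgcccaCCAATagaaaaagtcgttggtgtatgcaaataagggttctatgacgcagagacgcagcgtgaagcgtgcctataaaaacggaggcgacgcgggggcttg
H2AFX: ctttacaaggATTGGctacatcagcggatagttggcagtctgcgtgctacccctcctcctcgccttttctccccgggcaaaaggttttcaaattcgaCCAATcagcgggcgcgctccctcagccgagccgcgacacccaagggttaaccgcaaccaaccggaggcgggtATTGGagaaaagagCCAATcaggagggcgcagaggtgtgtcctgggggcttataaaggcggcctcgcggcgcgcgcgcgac

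The printed windows of the H3.3 genes differed in base composition and in the motifs found. The H3F3A window was 75.2% G or C and held 1 CCAAT match at position -65, counted from the start, and 6 matches to the GC box (GGGCGG) at -185, -129, -123, -98, -44 and -39, of which the last pair shares 1 base. The H3F3B window was 52.4% G or C and held 4 CCAAT matches at -216, -192, -169 and -99, a TATA box (TATAAA) at -29 and an octamer (ATTTGCAT) at -76. The other windows of H3F3A were 50.4%, 78.4% and 83.2% G or C, with 1, 2 and 3 GC box matches. The window of 50.4% also held 1 CCAAT match and lay near 1 annotated coding start. The contrast with H3F3B in composition therefore depends on the window printed. The H2AFX window was 60.8% G or C and held 4 CCAAT matches at -240, -153, -81 and -67 and a TATA box at -31. Motifs were searched on both strands as exact letters. Of all 35116 windows of this length in the table, 32.0% held CCAAT, 42.6% the GC box, 10.7% the TATA box and 1.63% the octamer. The cAMP response element (TGACGTCA) and the E2F letters TTTGGCGC and TTTCCCGC, in 1.65%, 0.55% and 1.39% of all windows, were not found in these 3 windows. H2AFX also held TTTGAA, of the cell cycle homology region, at -164 (13.3% of windows), and H3F3A held AAACACA, the H1 box, at -229 (4.82%). A match of letters is a description and does not show that a factor bound.

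H2AFX, the gene of the histone that marks DNA breaks once phosphorylated, fell in all 4 drug comparisons. H2AFX (ENSG00000188486; chr11:119093854-119095467, minus strand) had 187 and 186 FPKM in solvent, 110.05 and 110.8 FPKM at 20 nM and 85.1 and 86.65 FPKM at 100 nM at 16 h. Its values at 24 h were 212 and 199.7 FPKM in solvent, 173 and 152 FPKM at 20 nM and 146 and 142 FPKM at 100 nM. No treated library reached the solvent range of its time, and at 16 h the libraries of each group lay within 2 FPKM of each other. The log2 change at 16 h was -0.75 (SE 0.06, adjusted p = 7.68e-05) at 20 nM and -1.11 (SE 0.06, adjusted p = 5.44e-06) at 100 nM, or 0.591 and 0.460 times the solvent level. At 24 h it was -0.34 (adjusted p = 0.00301) at 20 nM and -0.51 (adjusted p = 0.000319) at 100 nM, or 0.790 and 0.699 times. Each of these calls held in 22 of 22 alternatives, with -0.53 at 20 nM and 24 h on rescaling to a common sum.

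H2AFX is the member whose mRNA can end like that of a clustered histone gene. Its transcripts hold the histone 3′ stem-loop, shown because it decides which form of the mRNA poly(A) selection can catch; the paired stem is in capitals.
H2AFX stem-loop, chr11:119094898-119094913 (minus strand, GRCh38): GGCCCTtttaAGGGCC
The stem-loop lies in both annotated transcripts, and a poly(A) signal (AATAAA or ATTAAA) lies in the last 50 bases of both. A search for the 16-base element found it in 1 of 9 members. It was also found in 12 of the 26 clustered histone genes that passed the filter (46.2%) and in 53 of 11660 tested protein-coding genes (0.455%). Of the 67 protein-coding clustered genes in the annotation, the search found it in 28 (41.8%). The search thus misses many such genes, and the lack of a match does not show that the element is absent. All 9 members had a poly(A) signal near the end of at least 1 transcript, as did 13 of those 26 clustered genes and 90.9% of tested protein-coding genes. FPKM is 1 value per gene, so the tailed and the stem-loop form of H2AFX mRNA cannot be told apart, and a form without a tail would mostly be lost in poly(A) selection. The clustered histone genes themselves gave 12 higher and 1 lower of 26 tested at 20 nM and 9 higher and 2 lower at 100 nM at 16 h, and 18 and 15 higher with 0 lower at 24 h. Of all tested genes, 6.78% and 9.16% were called higher at 16 h (20 nM and 100 nM) and 14.7% and 15.4% at 24 h. The shares called lower were 11% and 14.7% at 16 h and 14.1% and 18.4% at 24 h. These 26 were those of 85 in the table that passed the filter. A gene could pass it through the 2 libraries of 1 treated group alone, which favours counts of higher genes. Near-identical copies make the share of each gene uncertain.

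The H2A.Z genes H2AFZ and H2AFV were not called against solvent at either dose or time. H2AFZ (ENSG00000164032; chr4:99948086-99950388, minus strand), which encodes H2A.Z.1, had 518 and 483 FPKM in solvent, 493 and 519 FPKM at 20 nM and 546 and 479 FPKM at 100 nM at 16 h. After 24 h it had 415 and 395 FPKM in solvent, 481 and 400.4 FPKM at 20 nM and 477 and 469 FPKM at 100 nM. The groups overlapped at 16 h, and at 24 h both 100 nM libraries were above both solvent libraries. The log2 change at 100 nM and 24 h was 0.22 (95% interval 0.03 to 0.42, adjusted p = 0.0782), and the other drug comparisons gave 0.02 to 0.12. That difference was called when library 7 or 8 was left out (adjusted p = 0.0270 for either) and with median-of-ratios scaling (0.0479). In solvent alone H2AFZ averaged 405 ± 14 FPKM at 24 h and 500.4 ± 25 FPKM at 16 h (SD, n = 2 each), a log2 difference of -0.30 (adjusted p = 0.0738).

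H2AFV (ENSG00000105968; chr7:44826791-44848083, minus strand), which encodes H2A.Z.2, was the least variable member, at 107 to 125 FPKM in the 12 libraries. Its log2 changes against solvent were -0.09 to 0.08, with adjusted p of 0.357 to 0.769. Without library 3 the change at 100 nM and 16 h was called (-0.20, adjusted p = 0.0498). The 95% interval of the change at 100 nM and 16 h ran from -0.24 to 0.06, and that of 20 nM at 24 h from -0.06 to 0.23. The ratio of H2AFZ to H2AFV was 3.55 ± 0.09 in solvent, 3.63 ± 0.31 at 20 nM and 3.99 ± 0.01 at 100 nM at 24 h, and 4.07 ± 0.16, 4.21 ± 0.04 and 4.43 ± 0.06 at 16 h (SD, n = 2 each). Unlike the H3.3 ratio, this ratio stayed between 3.41 and 4.47 in all 12 libraries.

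H2AFY, the macroH2A1 gene (ENSG00000113648; chr5:135333900-135399914, minus strand), had 152 to 189 FPKM and was not called in any of the 9 comparisons. At 100 nM and 16 h it had 173 and 152 FPKM, against 182 and 184 FPKM in solvent, a log2 change of -0.17 (95% interval -0.31 to -0.04, adjusted p = 0.0617). This difference was called without library 3 (-0.27, adjusted p = 0.0136) and on rescaling to a common sum of all or of nuclear genes (0.0461 and 0.0443). At the other 3 drug comparisons the change was -0.05 to 0.04. That at 20 nM and 24 h was called on rescaling to a common sum (-0.23, adjusted p = 0.0209), which moved the median of all tested genes there to -0.16. The related gene H2AFY2, which encodes macroH2A2, was lower in all 4 drug comparisons, with 32.4 ± 0.8 FPKM at 20 nM and 32.0 ± 0.1 FPKM at 100 nM at 16 h against 39.2 ± 0.9 FPKM in solvent (adjusted p = 0.00255 and 0.00122). At 24 h it had 33.3 ± 0.3 FPKM at 20 nM and 28.1 ± 0.6 FPKM at 100 nM against 46.1 ± 0.4 FPKM in solvent (SD, n = 2 each; adjusted p = 0.000149 and 9.53e-06).

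H2AFJ (ENSG00000246705; chr12:14774383-14778002, plus strand) was near the edge of detection, with 0.47 and 0.46 FPKM in solvent, 0.85 and 0.56 FPKM at 20 nM and 0.60 and 0.27 FPKM at 100 nM at 16 h. Its values at 24 h were 0.57 and 0.29 FPKM in solvent, 0.43 and 0.44 FPKM at 20 nM and 0.78 and 0.87 FPKM at 100 nM. Both libraries of 20 nM at 16 h and of 100 nM at 24 h were above the solvent libraries of their time, and the other treated groups overlapped with solvent. In a fit without the filter, over 28271 genes, H2AFJ was not called in any of the 9 comparisons (adjusted p = 0.147 to 1).

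The linker histone gene H1F0 (ENSG00000189060; chr22:37805093-37807436, plus strand) had the widest range of the 9 members relative to its lowest value, and its change at 20 nM had opposite signs at 16 h and 24 h. At 16 h it had 92.5 and 91.8 FPKM in solvent, 62.8 and 64.1 FPKM at 20 nM and 42.3 and 40.8 FPKM at 100 nM. After 24 h it had 115 and 112 FPKM in solvent, 138.9 and 138.6 FPKM at 20 nM and 114 and 118 FPKM at 100 nM. The 16 h groups were ordered by dose without overlap, whereas at 24 h the 20 nM libraries were the highest and the 100 nM libraries overlapped with solvent. H1F0 fell at 16 h by a log2 change of -0.53 (SE 0.04, adjusted p = 4.70e-05) at 20 nM and -1.13 (SE 0.04, adjusted p = 6.87e-07) at 100 nM, or to 0.688 and 0.451 times the solvent level. After 24 h H1F0 rose at 20 nM (0.28, adjusted p = 0.000829) and the change at 100 nM was 0.03 (95% interval -0.05 to 0.11, adjusted p = 0.598). The rise at 20 nM ended when libraries were rescaled to a common sum (0.10, adjusted p = 0.103), a scaling that moved the median of all tested genes in this comparison to -0.16. Relative to that median the change was 0.26, against 0.28 relative to the median without rescaling. The rise remained called on rescaling to a common sum of nuclear genes. The mitochondrial share of the FPKM sum was 23.8% and 25.8% at 20 nM and 17.9% and 18.6% in solvent at 24 h. The part of that share in the rise was not tested.

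H1FX (ENSG00000184897; chr3:129314771-129316277, minus strand), the other linker histone gene outside the clusters, was not called in any comparison. It had 94.3 and 95.04 FPKM in solvent, 84.9 and 89.35 FPKM at 20 nM and 78.3 and 71.9 FPKM at 100 nM at 16 h. At 24 h it had 103 and 92.4 FPKM in solvent, 94.1 and 70.7 FPKM at 20 nM and 94.0 FPKM in both 100 nM libraries. The 16 h treated libraries were below solvent, and the 20 nM libraries of 24 h were further apart than those of any other group. The log2 change at 100 nM and 16 h was -0.33 (95% interval -0.58 to -0.08, adjusted p = 0.0620), and it was called when library 7 or 8, both of 24 h, was left out of the fit (adjusted p = 0.00541 and 0.00543) and under 3 of 10 other settings (0.0127 to 0.0485). At 20 nM and 24 h the change was -0.25 (adjusted p = 0.122), and it was -0.46 (adjusted p = 0.00416) without library 7 and -0.05 (adjusted p = 0.650) without library 8. It was called on rescaling to a common sum of all or of nuclear genes (-0.44 and -0.32, adjusted p = 0.0170 and 0.0493). In mean FPKM, H1F0 was below H1FX at 100 nM and 16 h (41.6 and 75.1) and above it at 20 nM and 24 h (139 and 82.4).

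Between the doses, 2 of 8 members were called at 16 h, both lower at 100 nM, where 0.32% of all tested genes were called (0.0446% higher and 0.275% lower). Another 2 of 8 were called at 24 h, both lower at 100 nM, beside 4.88% of all tested genes (1.82% higher and 3.06% lower). At 16 h H1F0 averaged 41.6 ± 1.1 FPKM at 100 nM and 63.5 ± 0.9 FPKM at 20 nM (log2 change -0.60, adjusted p = 0.000485). H2AFX averaged 85.9 ± 1.1 FPKM at 100 nM and 110.4 ± 0.5 FPKM at 20 nM (-0.36, adjusted p = 0.0478; SD, n = 2 each). The H2AFX call was lost without any 1 of 10 of the 12 libraries (adjusted p = 0.0747 to 0.244), the exceptions being libraries 7 and 8, and also without the filter and with a constant prior (0.0890 and 0.0906). At 24 h H3F3A averaged 244 ± 3 FPKM at 100 nM and 304 ± 7 FPKM at 20 nM (-0.31, adjusted p = 0.00860), and H1F0 averaged 116 ± 3 FPKM at 100 nM and 139 ± 0.2 FPKM at 20 nM (-0.25, adjusted p = 0.00995). Both 24 h calls were lost without library 9 or 10 (adjusted p = 0.0653 and 0.0663 for H3F3A, 0.0525 and 0.0896 for H1F0) and with the libraries of 24 h only (0.0641 and 0.0916), and that of H1F0 on rescaling to a common sum (-0.16, adjusted p = 0.0502). Without library 7 H1FX was called as well (0.41, adjusted p = 0.0140), and without library 8 H2AFX was (-0.26, adjusted p = 0.0438), so the count at 24 h became 3 in either case. H3F3B did not pass between doses at either time, with log2 changes of -0.02 (95% interval -0.12 to 0.08) at 16 h and -0.00148 (-0.10 to 0.10) at 24 h.

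In solvent alone, 1 of 8 members was called between the times and was higher at 24 h, where 5.62% of all tested genes were called (3.14% higher and 2.47% lower). H1F0 averaged 114 ± 2 FPKM at 24 h and 92.2 ± 0.5 FPKM at 16 h (SD, n = 2 each), a log2 change of 0.30 (adjusted p = 0.00702). Without library 5 the adjusted p was 0.0639. Without library 7 or 8, H2AFX and H2AFZ were called as well, so the count became 3. The drug effect was then compared between times as a difference of log2 changes, and 3 of 8 members were called at each dose, all with a higher value at 24 h. Of all tested genes, 11.5% were called at 20 nM (7.06% higher and 4.46% lower) and 10.2% at 100 nM (5.87% higher and 4.29% lower). For H1F0 the difference was 0.81 (SE 0.05, adjusted p = 0.000116) at 20 nM and 1.16 (SE 0.05, adjusted p = 3.99e-05) at 100 nM. For H2AFX it was 0.41 (SE 0.08, adjusted p = 0.0149) at 20 nM and 0.60 (SE 0.08, adjusted p = 0.00342) at 100 nM. For H3F3A it was 0.50 (SE 0.06, adjusted p = 0.00210) at 20 nM and 0.27 (SE 0.06, adjusted p = 0.0255) at 100 nM. The H2AFX call at 20 nM ended without library 1, 5 or 12 (adjusted p = 0.0510 to 0.0535) and on rescaling to a common sum (0.22, adjusted p = 0.109). The H3F3A call at 100 nM ended without any 1 of 7 libraries, numbers 4, 5, 6, 9, 10, 11 and 12 (0.0661 to 0.0899), on rescaling to a common sum (0.21, adjusted p = 0.0997) and with a constant prior (0.0570). At 20 nM the H3F3A difference was 0.31 (adjusted p = 0.0179) on that rescaling. For H3F3B the difference was 0.19 at 20 nM and 0.20 at 100 nM (adjusted p = 0.0841 and 0.0690), so its larger change at 24 h did not pass the test of the difference, although at 100 nM it did with median-of-ratios scaling (0.0496). The H2AFY difference at 100 nM was called without library 3 (0.31, adjusted p = 0.0343).

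Across the 12 libraries, the members that moved had similar profiles in part. The Pearson correlation of log2(FPKM + 1) was 0.96 between H2AFX and H3F3A, 0.84 between H1F0 and H2AFX, 0.74 between H1F0 and H3F3A and -0.35 between H3F3A and H3F3B. These are descriptions over libraries that fall into 6 groups. Of 11659 other protein-coding genes, those most like H3F3A were TUBB (0.993), SUCNR1 (0.990) and TUBA1B (0.988), where TUBB and TUBA1B encode beta- and alpha-tubulin. Those most like H2AFX were PRR12 (0.993), PYGO2 (0.992) and BUB3 (0.989). H1F0 was most like NFKBIA (0.993), MYB (0.991) and CLSPN (0.987), and H3F3B most like POLR2K (0.988), AUP1 (0.983) and GTF3C6 (0.980). The most like genes were CD2BP2 (0.983), RPL9 (0.979) and MAGEA3 (0.975) for H2AFZ, N4BP3 (0.925), TSC22D4 (0.920) and SCAND1 (0.907) for H1FX, ARPC1B (0.936), DPF1 (0.906) and GJA9-MYCBP (0.893) for H2AFY, and RPAIN (0.846), TTC5 (0.842) and ARAF (0.823) for H2AFV.

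Of 8 genes that deposit H3.3 or read it there, 3 rose and none fell at 20 nM and 16 h, 3 rose and 1 fell at 100 nM and 16 h, 2 rose and none fell at 20 nM and 24 h, and 3 rose and 1 fell at 100 nM and 24 h. The called shares of all tested genes were 17.7%, 23.8%, 28.8% and 33.8% in that order, the share of the list being lower at 20 nM and 24 h and higher in the others. When each library was left out, an alternative added for the lists after their values were seen, the first count of 3 became 1 without library 1 or 6, the 4 at 100 nM and 16 h became 0 without library 4 or 6, and the 2 at 20 nM and 24 h became 1 without library 11 and 3 without library 8 or 12. The median log2 change of the list was 0.05, 0.07, 0.00171 and -0.04 in that order. HIRA, the core of the chaperone complex that places H3.3 at active genes, averaged 29.4 ± 0.8 FPKM at 100 nM and 24.2 ± 0.2 FPKM in solvent at 24 h (log2 change 0.27, adjusted p = 0.00164). UBN1, its partner, averaged 39.2 ± 0.2 FPKM at 100 nM and 30.8 ± 0.7 FPKM in solvent at 24 h (0.34, adjusted p = 0.00380). Both were also called higher in the other 3 drug comparisons, but at 16 h each call ended without at least 2 of the 12 libraries (adjusted p = 0.0525 to 0.207), and at 20 nM and 24 h both ended on rescaling to a common sum. DAXX, which places H3.3 at repeats, averaged 101 ± 1 FPKM at 100 nM and 81.1 ± 5.3 FPKM in solvent at 24 h (0.31, adjusted p = 0.00134), and 90.3 ± 2.4 FPKM at 20 nM and 74.0 ± 1.0 FPKM in solvent at 16 h (0.28, adjusted p = 0.00429). Its call at 100 nM and 16 h (0.19, adjusted p = 0.0179) ended without library 3, 4, 5 or 6. DAXX was not called at 20 nM and 24 h. Its remodeller partner ATRX averaged 18.6 ± 0.2 FPKM at 100 nM and 29.7 ± 3.5 FPKM in solvent at 24 h (-0.64, adjusted p = 0.0129), a call that ended without library 9, 10 or 12 (0.0570 to 0.0870). The changes of HIRA, UBN1 and DAXX at 100 nM and 24 h held without any 1 library.

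**Figure D4:**
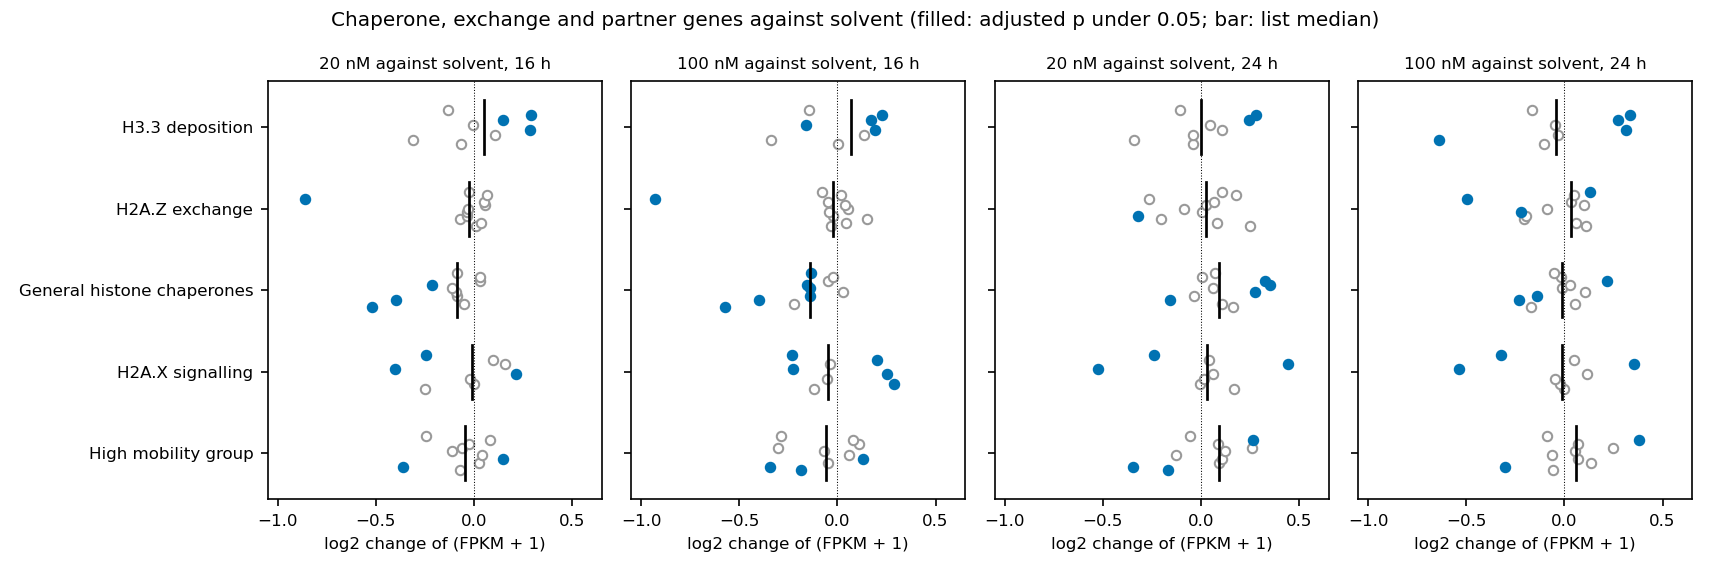
Difference of mean log2(FPKM + 1) against the solvent of the same time (horizontal axes) for genes of 5 lists around the replacement histones (points: genes, filled where the adjusted p was under 0.05; bars: list medians). At 16 h the gene furthest to the left in the H2A.Z exchange row is VPS72, at -0.86 and -0.93. At 20 nM and 24 h it is EP400, at -0.32. List medians lie between -0.14 and 0.09.

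Of 11 genes of the complexes that exchange H2A.Z, VPS72 was the 1 called at 16 h. VPS72, the subunit of the SRCAP and TIP60 complexes that binds H2A.Z, averaged 38.1 ± 1.1 FPKM at 20 nM and 36.6 ± 7.0 FPKM at 100 nM at 16 h, against 70.0 ± 4.3 FPKM in solvent (log2 changes -0.86 and -0.93, adjusted p = 0.00119 and 0.000492). After 24 h VPS72 averaged 47.3 ± 2.2 FPKM at 100 nM and 67.1 ± 1.1 FPKM in solvent (-0.50, adjusted p = 0.00794), with an adjusted p of 0.0521 without library 10, and the change at 20 nM was -0.26 (adjusted p = 0.102). At 24 h, 1 other gene fell at 20 nM (EP400), and 1 fell (INO80) and 1 rose (ZNHIT1) at 100 nM. In all 4 drug comparisons the called share of the list was below that of all tested genes (17.7% and 23.8% at 16 h, 28.8% and 33.8% at 24 h). Left-out libraries moved the count of called genes between 0 (without 7 or 12) and 2 (without 1, 2, 3, 4, 8 or 10) at 20 nM and 24 h, and between 0 (without 10) and 5 (without 7 or 8) at 100 nM and 24 h. Each of these 3 calls ended without at least 2 of the 12 libraries, that of EP400 without library 7 or 12 (adjusted p = 0.0666 to 0.0741), that of INO80 without library 9, 10, 11 or 12 (0.05002 to 0.167) and that of ZNHIT1 without any 1 of 10 libraries, all but 7 and 8 (0.0561 to 0.168).

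Of 10 general histone chaperones, none rose at 16 h, 3 fell at 20 nM and 6 fell at 100 nM, where 11% and 14.7% of all tested genes were called lower. The 6 became 2 without library 3, and the 3 became 2 without library 1, 2, 5 or 6. At 24 h 3 rose and 1 fell at 20 nM, and 1 rose and 2 fell at 100 nM, where 28.8% and 33.8% of all tested genes were called. The 3 called genes of 100 nM and 24 h became 1 without library 9, 11 or 12. Among those of 100 nM and 16 h, NASP and SUPT16H each lost the call without library 3 or 5 (adjusted p = 0.0602 to 0.143 over all libraries whose loss ended a call) and with median-of-ratios scaling or a constant prior. The list median was -0.09, -0.14, 0.09 and -0.01 in that order. ASF1B, which hands H3 and H4 to other chaperones, averaged 44.5 ± 2.4 FPKM at 20 nM and 42.7 ± 0.6 FPKM at 100 nM at 16 h, against 64.2 ± 6.1 FPKM in solvent (-0.52 and -0.57, adjusted p = 0.00106 and 0.000370). CHAF1B, a subunit of the chromatin assembly factor that works behind replication forks, averaged 12.4 FPKM at both doses and 16.6 FPKM in solvent at 16 h (-0.40 in either case, adjusted p = 0.000803 at 20 nM and 0.000489 at 100 nM). NPM1, an abundant nucleolar chaperone, averaged 4058 ± 117 FPKM at 20 nM and 3178 ± 181 FPKM in solvent at 24 h (0.35, adjusted p = 0.000668), and 3516 ± 37 FPKM at 20 nM and 4081 ± 1 FPKM in solvent at 16 h (-0.21, adjusted p = 0.0109). The NPM1 call at 16 h ended without library 1, 2, 5 or 6 (adjusted p = 0.0559 to 0.0746). The 24 h rises of SET and NAP1L4 at 20 nM (0.33 and 0.28, adjusted p = 0.00366 and 0.00448) ended on rescaling to a common sum.

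Of 8 genes of the signalling around H2A.X at breaks, 1 rose and 2 fell at 20 nM and 16 h, 3 rose and 2 fell at 100 nM and 16 h, and 1 rose and 2 fell at either dose at 24 h. The called shares of all tested genes were 17.7% and 23.8% at 16 h and 28.8% and 33.8% at 24 h. Without library 6 none of the 5 calls at 100 nM and 16 h was left, and the 3 at 20 nM and 16 h became 1 without library 1, 2 or 6, whereas at 24 h the counts stayed at 2 to 3 and at 3. PRKDC, the catalytic subunit of the DNA-dependent protein kinase, averaged 51.4 ± 1.1 FPKM at 20 nM and 50.9 ± 4.5 FPKM at 100 nM at 24 h, against 74.4 ± 3.5 FPKM in solvent (-0.52 and -0.54, adjusted p = 0.000427 and 0.000274). At 16 h it averaged 63.1 ± 0.4 FPKM at 20 nM and 83.9 ± 0.9 FPKM in solvent (-0.40, adjusted p = 0.00211). RNF168, a ubiquitin ligase that acts on H2A at breaks, averaged 18.4 ± 1.7 FPKM at 20 nM and 17.3 ± 0.1 FPKM at 100 nM at 24 h, against 13.3 ± 0.2 FPKM in solvent (0.44 and 0.36, adjusted p = 0.00160 and 0.00336). TP53BP1, which binds the modified chromatin, averaged 15.3 ± 0.3 FPKM at 100 nM and 19.4 ± 0.4 FPKM in solvent at 24 h (-0.32, adjusted p = 0.00289), and MDC1, which binds phosphorylated H2A.X, averaged 47.3 ± 3.0 FPKM at 100 nM and 39.6 ± 2.4 FPKM in solvent at 16 h (0.25, adjusted p = 0.0187). The MDC1 call ended without library 4 or 6 (adjusted p = 0.114 and 0.117).

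Of 10 high mobility group genes, whose proteins compete with linker histones for nucleosomes or bend DNA, 1 rose and 1 fell at 20 nM and 16 h, 1 rose and 2 fell at 100 nM and 16 h, 1 rose and 2 fell at 20 nM and 24 h, and 1 rose and 1 fell at 100 nM and 24 h. Called shares of all tested genes were 17.7%, 23.8%, 28.8% and 33.8% in that order, so the counts lay near or below the background. Left-out libraries brought the count to 0 (without 2, 5 or 6) and to 1 (without 6) at 16 h, to between 1 (without 11) and 5 (without 7 or 8) at 20 nM and 24 h, and to between 1 (without 9 or 11) and 3 at 100 nM and 24 h. HMGN4 averaged 48.2 ± 1.1 FPKM at 100 nM and 36.8 ± 2.2 FPKM in solvent at 24 h (0.38, adjusted p = 0.00109). HMGA1 averaged 1313 ± 55 FPKM at 100 nM and 1495 ± 1 FPKM in solvent at 16 h (-0.19, adjusted p = 0.00700). HMGA2 averaged 21.97 ± 0.9 FPKM at 100 nM and 28.1 ± 0.3 FPKM in solvent at 16 h (-0.34, adjusted p = 0.0104), and was also called lower in the other 3 drug comparisons, each of the 4 calls ending without at least 1 library (adjusted p = 0.0536 to 0.0817).

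Of 13 other histone genes listed beside the members, 3 passed the filter, H2AFY2 (described with H2AFY), CENPA and HIST3H2A. HIST3H2A carries the symbol of a clustered histone gene, not of a variant, and was not among the clustered genes counted above. CENPA, the histone H3 variant of centromeres, averaged 42.8 ± 0.3 FPKM at 20 nM and 48.6 ± 1.3 FPKM at 100 nM at 16 h, against 34.2 ± 1.5 FPKM in solvent (0.32 and 0.49, adjusted p = 0.00230 and 0.000137). After 24 h CENPA averaged 29.9 ± 0.2 FPKM at 20 nM and 35.8 ± 1.4 FPKM in solvent (-0.25, adjusted p = 0.00448), and it was not called at 100 nM. HIST3H2A averaged 21.5 ± 1.2 FPKM at 20 nM and 22.4 ± 0.9 FPKM at 100 nM at 24 h, against 6.56 ± 0.78 FPKM in solvent (1.58 and 1.63, adjusted p = 4.45e-05 and 1.51e-05), and 12.2 ± 0.7 FPKM at 20 nM against 6.07 ± 0.52 FPKM in solvent at 16 h (0.91, adjusted p = 0.000668).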

How the data were processed

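The labels' protocols describe RNA of HCT116 cells with an integrity number of at least 7, of which 1000 ng entered a directional kit after poly(A) selection. The authors deposited 1 table of FPKM with 2 decimals per gene and library, made with RSEM 1.2.28 and GRCh38, per the submitters' processing notes. The strand setting, aligner and annotation were not given in the sources used here; overlapping genes and near-identical copies are therefore uncertain. FPKM holds no counts, and a search for steps of 1 read among low values gave no depth (15 to 26 usable genes per library, at most 5 at the same step), so the depth is unknown and no counting interval was set. Within groups 1.00% to 1.20% of tested values were identical, so the columns of a group were not copies of each other. This does not show that the libraries came from separate cultures. Every library was counted as its own sample.

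GENCODE 29 gave symbols to 57836 genes, and 338 had none. Testing was limited to the 13458 genes (11660 of them protein-coding) that reached 1 FPKM in 2 or more of the 12 libraries. limma 3.58.1 in R 4.3.3 fitted log2(FPKM + 1), which understates changes of low genes, with 6 group means over all libraries and a mean-dependent prior (6 residual and 2.98 prior degrees of freedom). The 9 comparisons were 2 doses against solvent at 2 times, dose against dose, solvent between times and each dose effect between times. The table's columns carry a group and a library number only, so libraries entered without pairing.

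The members, lists and tests were chosen with earlier results of these data known. Named were the members, the called list genes with the smallest adjusted p above 0 FPKM in every library (up to 4 per list and drug comparison), and the 3 protein-coding genes with the highest correlation to each member; which of those named genes were given in full was chosen after their values were seen. Alternatives were pseudocounts of 0.1 and 0.5, no filter or a minimum of 5 FPKM, rescaling to a common sum of all or of nuclear genes, median-of-ratios scaling, a constant prior, protein-coding genes only, the libraries of 1 time, and leaving out each library. Promoters came from RefSeq on GRCh38.p14, and transcript ends from the GENCODE 29 transcripts.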

Additional observations from a re-analysis of the deposited data

Results flagged for a closer look

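For 3 members the drug effect differed between 24 h and 16 h at the same dose, by limma's test of the difference with adjustment over all 13458 tested genes. At 20 nM the log2 change at 24 h minus that at 16 h was 0.81 for H1F0, 0.41 for H2AFX and 0.50 for H3F3A (adjusted p = 0.000116, 0.0149 and 0.00210). At 100 nM it was 1.16 for H1F0, 0.60 for H2AFX and 0.27 for H3F3A (adjusted p = 3.99e-05, 0.00342 and 0.0255). The H2AFX call at 20 nM ended without library 1, 5 or 12 and on rescaling to a common sum (0.22, adjusted p = 0.109). The H3F3A call at 100 nM ended without any 1 of 7 libraries, on that rescaling (0.21, adjusted p = 0.0997) and with a constant prior (0.0570). For H1F0 a fall at 16 h stood beside a rise at 24 h at 20 nM and beside a change at 100 nM that did not pass.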

How the results depend on the processing

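No paired analysis was possible because the columns carry none of the sample numbers of the labels. Against solvent, each of the 4 counts of members called stayed within 1.5 times of its value under every alternative run. At 100 nM against 20 nM and 16 h, the count of 2 became 1 without the filter and 1 with a constant prior, and was 1 to 2 when leaving out each library. At 100 nM against 20 nM and 24 h, it became 1 on rescaling to a common sum and 0 with the libraries of the same time point only, and was 0 to 3 when leaving out each library. In solvent at 24 h against 16 h, the count of 1 became 2 on rescaling to a common sum of nuclear genes, and was 0 to 3 when leaving out each library. The cause was not tested. Over members and comparisons, 650 of 696 values under other settings and 795 of 864 with a library left out kept their direction and side of the threshold; 16 and 31 lost a call, 11 and 14 gained one, no called value changed sign, and 19 and 24 uncalled values changed sign (-0.10 to 0.09 and -0.08 to 0.07). The H3F3B calls at 16 h also ended without the filter, with a constant prior, within the time point and, at 100 nM, on rescaling to a common sum (adjusted p = 0.0517 to 0.116 over both doses). Rescaling to a common sum moved the median of all tested genes to -0.16 at 20 nM and -0.11 at 100 nM at 24 h; relative to it H3F3B was higher by 0.34 and 0.37, and H3F3A and H2AFX stood at -0.31 and -0.37 at 20 nM and at -0.58 and -0.50 at 100 nM. With 2 libraries per group and unknown depth, precision rests on the spread between libraries.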
